A study of Mus musculus with 28 samples.

Results

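The constitutive proteasome genes are the 34 mouse genes Psma1 to Psma7, Psmb1 to Psmb7, Psmc1 to Psmc6 and Psmd1 to Psmd14, which were followed here in tibialis anterior (TA) muscle of 2 mouse models of centronuclear myopathy treated with tamoxifen or placebo. They were selected by symbol, with each symbol matched to 1 Ensembl identifier, and all 34 were found among the 55359 identifiers shared by the count tables of both cohorts. The core particle holds 14 of them (Psma and Psmb) and the regulatory particle 20 (Psmc and Psmd), and all 34 were abundant enough to be tested in both cohorts.

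The proteasome is the protease complex that degrades proteins tagged with ubiquitin. Its core particle is a barrel whose outer rings of alpha subunits (Psma) gate the entrance and whose inner rings of beta subunits (Psmb) carry the proteolytic sites on Psmb5, Psmb6 and Psmb7. The regulatory particle caps the barrel with a base of ATPases (Psmc) that unfold and feed the substrate, together with Psmd1, Psmd2 and the ubiquitin receptor Psmd4, and a lid that holds the deubiquitinase Psmd14. Psmd5, Psmd9 and Psmd10 are chaperones that help to assemble the base and do not remain in the mature complex. In skeletal muscle the proteasome degrades contractile proteins, and its subunit genes are known to be induced together when muscle wastes.

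RNA of 28 mice was sequenced, in 7 groups of 4, from TA muscle at 8 weeks of age on a C57BL/6N background. Cohort G held wild-type (WT) and Dnm2 S619L/+ mice, which carry 1 missense allele of the membrane-fission GTPase dynamin 2 in all cells, each given placebo or tamoxifen, a modulator of the estrogen receptor. Cohort F held WT mice on placebo and Bin1 mck-/- mice, in which the membrane-curving protein Bin1 was deleted in muscle fibres by a Cre under the muscle creatine kinase promoter, on placebo or tamoxifen. There were no WT mice on tamoxifen in cohort F. The libraries of cohort G were made from 300 ng of RNA fragmented for 2 minutes and those of cohort F from 350 ng fragmented for 8 minutes, so the model and the library protocol cannot be told apart in any difference between cohorts.

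Total counts lay between 15586333 and 109710886 per mouse in cohort G and between 24671835 and 35136327 in cohort F. Bin1 checked the knockout: its level was 62.0, 51.6, 52.2 and 58.7 CPM (read counts scaled to a common library size) in the placebo Bin1 mck-/- mice against 549, 521, 533 and 555 in the WT mice of that cohort. Dnm2 mRNA, which a missense allele need not change, averaged 67.5 ± 4.64 CPM (SD, n = 4) in placebo Dnm2 S619L/+ and 63.0 ± 1.44 in placebo WT muscle. The 12 muscle fibre markers were detected in every group and summed to 92593 to 199722 CPM, as the labelled tissue would have them, but other markers also moved with the groups. The 10 bone markers, none of which defines muscle, summed to 6408, 9784, 4486 and 6562 CPM in the tamoxifen WT mice 1 to 4 and to 3388, 6031, 7832 and 543 in the tamoxifen Dnm2 S619L/+ mice, against 158 to 478 in WT placebo and 430.3 to 584 in Dnm2 S619L/+ placebo. In cohort F the bone sum was 495, 3028, 424 and 92.0 CPM in the tamoxifen Bin1 mck-/- mice and 426 to 1455 in those on placebo. The 11 macrophage and leukocyte markers summed to 67.9 to 118 CPM in WT placebo, 207 to 392 in WT tamoxifen, 105 to 455 in Dnm2 S619L/+ placebo, 123 to 308 in Dnm2 S619L/+ tamoxifen, 52.2 to 86.9 in WT of cohort F, 169 to 342 in Bin1 mck-/- placebo and 61.0 to 204 in Bin1 mck-/- tamoxifen muscle. The 8 denervation and regeneration markers summed to 166 to 328 CPM in Dnm2 S619L/+ placebo and 228 to 298 in Dnm2 S619L/+ tamoxifen against 77.1 to 77.9 in WT placebo and 99.7 to 126 in WT tamoxifen muscle, and in cohort F to 78.5 to 95.4 in WT, 86.2 to 218 in Bin1 mck-/- placebo and 92.8 to 221 in Bin1 mck-/- tamoxifen muscle. The 6 proliferation markers summed to 1.58 to 5.501 CPM in WT placebo, 9.03 to 24.9 in WT tamoxifen, 4.46 to 22.6 in Dnm2 S619L/+ placebo and 10.6 to 16.6 in Dnm2 S619L/+ tamoxifen muscle, and to 2.71 to 6.23, 4.94 to 17.2 and 2.81 to 9.79 in WT, Bin1 mck-/- placebo and Bin1 mck-/- tamoxifen muscle of cohort F. The sums of 5 erythroid and of 5 adipocyte markers overlapped between the placebo groups of cohort G. The erythroid sum was 366 to 1569 CPM in WT placebo, 869 to 2757 in WT tamoxifen, 350 to 864 in Dnm2 S619L/+ placebo and 633 to 2021 in Dnm2 S619L/+ tamoxifen muscle. In cohort F it was 250 to 748 in WT, 674 to 1984 in Bin1 mck-/- placebo and 171 to 1039 in Bin1 mck-/- tamoxifen muscle. The adipocyte sum was 261 to 519 CPM in WT placebo and 199 to 270 in WT tamoxifen muscle. Mitochondrial transcripts took 19.6 to 25.7% of counts in WT placebo mice of cohort G and 13.6 to 19.0% in its other 3 groups. The part of these tissue differences in the proteasome gene values was not tested, and in whole muscle fewer cells of a type cannot be told apart from less RNA per cell.

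In several groups most of the proteasome genes had their highest or lowest value in the same mouse. Single mice thus carried much of the spread within these groups. For how many of all genes the same mouse was highest or lowest was not counted. Whether this order is particular to the proteasome genes was therefore not tested. Among the placebo Dnm2 S619L/+ mice, mouse 2 had the highest value for 33 of the 34 genes, the exception being Psmd1, and among the tamoxifen Dnm2 S619L/+ mice, mouse 4 was highest for 33 of 34, the exception being Psmd10. Among the tamoxifen Bin1 mck-/- mice, mouse 4 was highest for 28 genes and mouse 2 lowest for 29. Among the WT mice of cohort F, mouse 8 was highest for 27 genes, which included all 14 of the core particle. The placebo Bin1 mck-/- mice had no such order, with the highest value of 2 to 14 genes in each mouse. Some mice at these extremes also differed in other tissue markers. The tamoxifen Dnm2 S619L/+ mouse 4 had the lowest bone sum of its group and the highest fibre sum, 151262 CPM against 92593 to 111333 in the other 3. The tamoxifen Bin1 mck-/- mouse 2 had the highest bone sum and the lowest fibre sum of its group, 127752 CPM against 159538 to 199722. Placebo Dnm2 S619L/+ mouse 2 had the highest fibre sum of its group, 148072 CPM, but its bone sum of 568 CPM lay within the range of the others, 430 to 584. For WT mouse 8 of cohort F the bone sum (317 CPM) and the fibre sum (160914 CPM) both lay within the range of its group. Counts of called genes are therefore given below with and without these mice.

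The mean of log2 CPM over the genes of a particle summarises each mouse. For the core particle it was 5.85, 5.91, 5.89 and 5.74 in WT placebo mice 1 to 4 of cohort G, 5.47, 5.53, 5.57 and 5.69 in WT tamoxifen, 5.92, 6.34, 5.92 and 5.99 in Dnm2 S619L/+ placebo and 5.83, 5.64, 5.61 and 5.99 in Dnm2 S619L/+ tamoxifen mice. In cohort F it was 5.93, 5.95, 5.89 and 6.16 in WT mice 5 to 8, 5.90, 5.92, 5.96 and 5.90 in Bin1 mck-/- placebo and 6.23, 5.99, 6.13 and 6.48 in Bin1 mck-/- tamoxifen mice. All 4 tamoxifen WT mice were below all 4 placebo WT mice, the groups of Dnm2 S619L/+ mice overlapped, and all 4 tamoxifen Bin1 mck-/- mice were above all 4 on placebo. The regulatory particle had the same arrangement, with group means of 6.50 ± 0.07 (SD, n = 4), 6.25 ± 0.09, 6.69 ± 0.20 and 6.42 ± 0.17 in the 4 groups of cohort G in that order, and 6.53 ± 0.07, 6.53 ± 0.03 and 6.73 ± 0.16 in the 3 groups of cohort F, except that the lowest tamoxifen Bin1 mck-/- mouse, at 6.55, was level with the highest on placebo, also at 6.55.

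**Figure D1:**
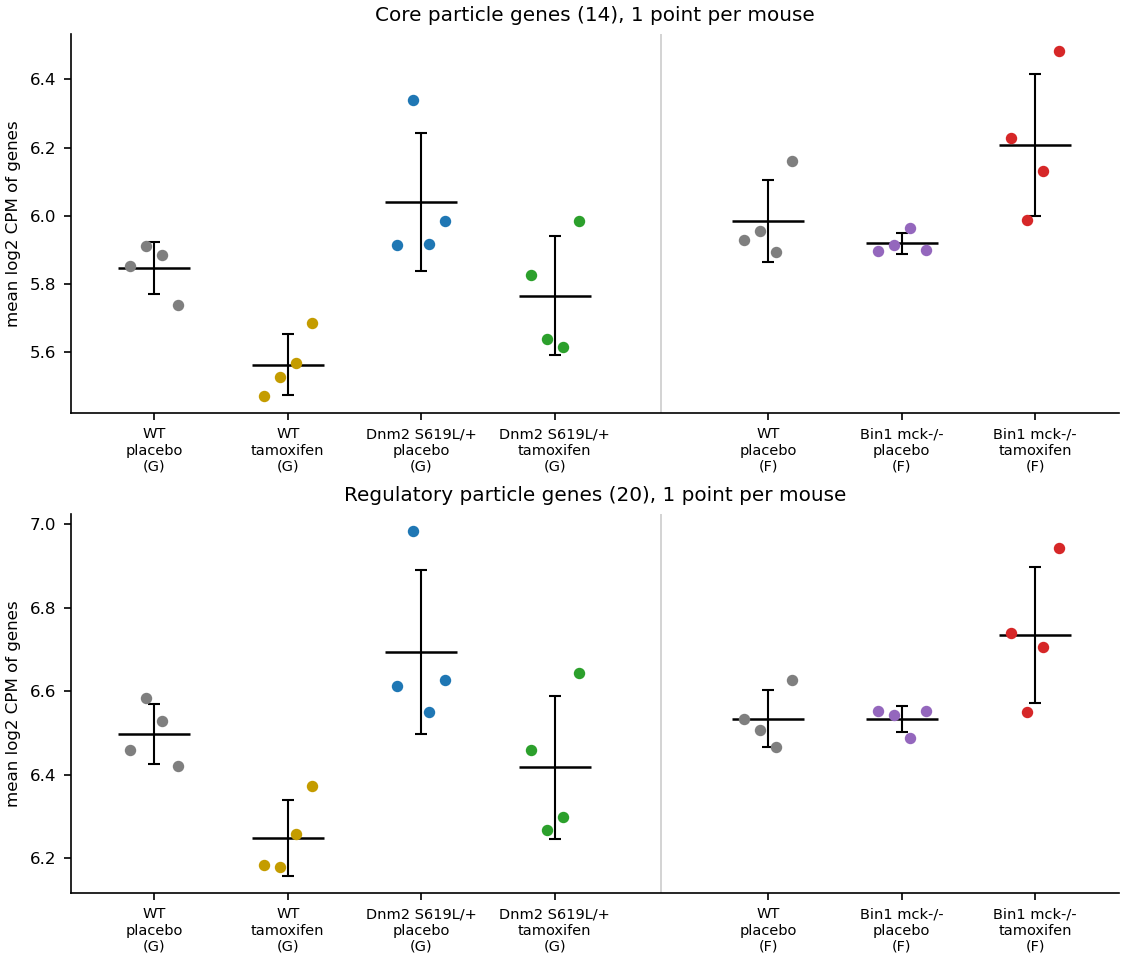
Mean log2 CPM over the 14 core particle genes (top) and the 20 regulatory particle genes (bottom), with 1 point per mouse, group means as horizontal lines and the SD of 4 mice as error bars. G and F are the cohorts. The WT tamoxifen group has the lowest mean in cohort G, and the tamoxifen Bin1 mck-/- group the highest in cohort F. Single mice of both overlap mice of other groups. Placebo Dnm2 S619L/+ mouse 2 stands high at 6.34 for the core particle.

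Levels compared between genes are given per length, as CPM divided by the length in kb of the longest principal transcript. In WT placebo muscle of cohort G the highest were the catalytic subunit Psmb6 at 167 CPM per kb, the catalytic subunit Psmb7 at 151, the ATPase Psmc3 at 125 and the alpha subunit Psma6 at 112, and the same 3 genes led in WT muscle of cohort F, with Psmb6 at 173, Psmb7 at 165 and Psmc3 at 139.8 CPM per kb. The spread of Psmb6 (133.0 ± 7.26 CPM, SD, n = 4) and Psmb7 (175 ± 16.5 CPM) in WT placebo mice does not set their order firmly. The lowest were the assembly chaperones Psmd9 at 8.67, Psmd10 at 6.10 and Psmd5 at 3.80 CPM per kb, with the core subunits Psma5 at 9.37 and Psma3 at 9.72 just above them. Subunits that enter the complex in equal number thus differed widely in counted reads per length, Psma3 and Psma6 by 9.72 against 112 CPM per kb. Part of this gap comes from the lengths used, 2846 bp for Psma3 and 1042 bp for Psma6. Before division by length they stood at 27.7 and 117 CPM. Whether the longest principal transcript is the one present in this muscle was not tested. Reads that match more than 1 place are not counted by the tool used, and how many reads each gene lost to near-identical copies was not tested. The largest gap between the cohorts' WT mice was in Psmb4, a beta subunit without a proteolytic site, with 73.3 ± 5.27 CPM in cohort G and 129 ± 8.78 in cohort F (SD, n = 4 each), and it cannot be told apart from the library protocol.

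**Figure D2:**
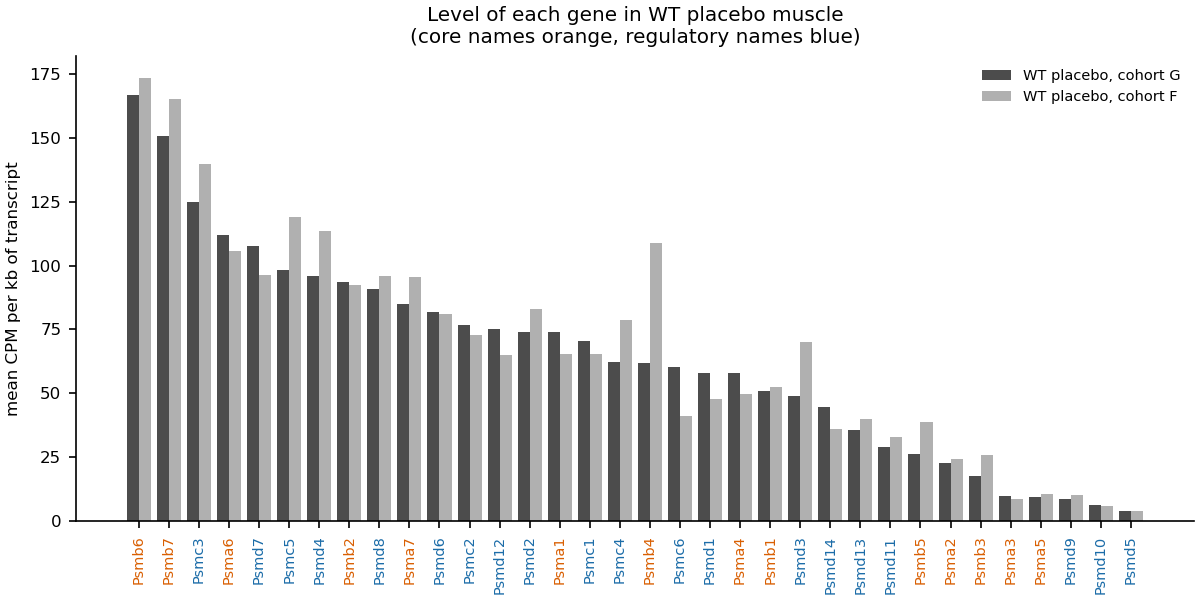
Mean CPM per kb of transcript for each of the 34 genes in WT placebo muscle of cohort G (dark bars) and cohort F (light bars), ordered by cohort G. Orange names are core and blue names regulatory particle genes. Psmb6 leads in both cohorts at 167 and 173 CPM per kb and Psmd5 is last at 3.80 and 4.10.

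Promoter sequences are shown for 6 genes on which the comparisons below turn: Psmb4 and Psmd5, called with the smallest p in the core and in the regulatory particle of Dnm2 S619L/+ muscle, Psma1 and Psmc5, called under tamoxifen in cohort G, Psmd9, called under tamoxifen in Bin1 mck-/- muscle, and Psmd4, which differed between the models. Each is the 250 bases before the RefSeq transcription start, 5′ to 3′ on the strand of the gene, in build GRCm38.p6, and capitals mark letters that belong to any of the 4 motifs searched on both strands. The core of the antioxidant response element, which NRF1 and NRF2 type factors bind, was searched as TGACNNNGC. The CCAAT box was searched by the letters of its name. The ETS site was searched as CCGGAAG, and the GC box, which Sp1 type factors bind, was searched as GGGCGG. Psmb4 lies at chr3:94886959-94887208, minus strand. Psmd5 lies at chr2:34870963-34871212, minus strand. Psma1 lies at chr7:114276117-114276366, minus strand. Psmc5 lies at chr11:106255935-106256184, plus strand. Psmd9 lies at chr5:123227940-123228189, plus strand. Psmd4 lies at chr3:95042615-95042864, minus strand.

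Psmb4: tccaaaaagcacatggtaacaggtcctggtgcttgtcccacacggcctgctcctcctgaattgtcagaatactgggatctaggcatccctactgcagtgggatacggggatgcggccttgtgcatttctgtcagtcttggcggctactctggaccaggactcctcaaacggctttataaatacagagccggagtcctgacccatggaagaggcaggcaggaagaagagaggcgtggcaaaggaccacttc
Psmd5: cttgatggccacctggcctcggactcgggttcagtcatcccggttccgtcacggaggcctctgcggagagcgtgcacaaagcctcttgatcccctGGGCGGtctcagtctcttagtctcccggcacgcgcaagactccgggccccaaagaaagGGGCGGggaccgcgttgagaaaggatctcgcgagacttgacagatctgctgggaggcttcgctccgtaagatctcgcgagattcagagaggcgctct
Psma1: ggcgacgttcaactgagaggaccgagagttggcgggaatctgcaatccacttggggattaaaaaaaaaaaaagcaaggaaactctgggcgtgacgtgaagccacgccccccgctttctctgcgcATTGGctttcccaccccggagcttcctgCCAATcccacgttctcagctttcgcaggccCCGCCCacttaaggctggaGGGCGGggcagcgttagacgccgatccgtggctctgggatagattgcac
Psmc5: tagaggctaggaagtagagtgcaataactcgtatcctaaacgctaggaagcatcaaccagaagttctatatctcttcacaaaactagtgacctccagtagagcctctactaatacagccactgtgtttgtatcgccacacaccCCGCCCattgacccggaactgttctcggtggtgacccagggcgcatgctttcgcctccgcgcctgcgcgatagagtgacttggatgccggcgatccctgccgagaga
Psmd9: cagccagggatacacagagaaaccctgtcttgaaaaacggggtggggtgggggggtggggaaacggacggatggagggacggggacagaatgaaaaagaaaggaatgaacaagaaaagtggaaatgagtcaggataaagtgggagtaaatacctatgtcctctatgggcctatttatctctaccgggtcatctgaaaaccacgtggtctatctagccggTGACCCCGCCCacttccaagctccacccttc
Psmd4: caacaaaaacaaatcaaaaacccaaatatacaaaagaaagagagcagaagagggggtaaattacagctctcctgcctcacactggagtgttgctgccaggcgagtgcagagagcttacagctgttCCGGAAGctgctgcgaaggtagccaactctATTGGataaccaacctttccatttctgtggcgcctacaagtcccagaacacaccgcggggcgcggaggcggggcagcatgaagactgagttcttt

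Of the 34 genes, 28 had a promoter in the RefSeq table, and Psmb1, Psmb2, Psmb7, Psmc3, Psmd3 and Psmd7 were not looked at. The ETS site was in 8 of the 28 (28.6%), all of them regulatory particle genes, beside 7.05% of 27025 promoters of the same length, and the GC box was in 17 (60.7%) beside 32.9%. The CCAAT box was in 11 (39.3%) beside 34.5%, and the antioxidant response element core was in 5 (17.9%), which were Psmb5, Psmb6, Psmc6, Psmd12 and Psmd9, beside 10.1%. The promoter of Psmb4 held none of the 4 motifs, that of Psmd5 held 2 GC boxes, that of Psmc5 held 1, that of Psmd4 held 1 CCAAT box and 1 ETS site, that of Psma1 held 2 CCAAT and 2 GC boxes, and that of Psmd9 held 1 antioxidant response element core and 1 GC box. These matches describe the letters in the windows and say nothing about which factors bound there. GC content ran from 42.8 to 77.2% with a median of 54.6%, beside a median of 52.0% over all promoters.

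In the comparisons that follow, a gene is called where the edgeR quasi-likelihood test over all genes of the cohort gave an adjusted p (Benjamini-Hochberg) below 0.05. Comparisons within a cohort share mice and are not independent of each other. Some counts from alternative fits stand without the share of all genes called in that fit. Those show only how the count moved. No share of all genes was counted at an unadjusted p below 0.05, so counts at that threshold have no background beside them. Fold changes are on the log2 scale with their standard error (SE), and 4 mice stand behind each group mean.

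The first comparison asked what the Dnm2 mutation alone does to the proteasome genes. In placebo Dnm2 S619L/+ against placebo WT muscle, 7 of the 34 genes rose and none fell, beside 21.9% of 15439 genes called in either direction, and 12.1% called higher. The core particle gave 3 of 14 (Psmb4, Psmb1 and Psmb3, all beta subunits) and the regulatory particle 4 of 20 (Psmd5, Psmd10, Psmd13 and Psmd11). The median log2 fold change was 0.17 over the core genes and 0.20 over the regulatory genes, against 0.02 over all genes, and 28 of 34 values were above 0. The denervation and regeneration sums of these groups did not overlap, and their part in the result was not tested.

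Psmb4 had the largest change of the 34. Its level was 121, 157, 109 and 119 CPM in the placebo Dnm2 S619L/+ mice and 72.3, 70.2, 69.5 and 81.0 in the placebo WT mice. All 4 mutant mice were above all 4 WT mice, the lowest mutant at 109 against the highest WT at 81.0 CPM, and the log2 fold change was 0.79 ± 0.15 (SE, adjusted p = 0.00215). Psmb1, a beta subunit beside the catalytic ones, rose from 89.5 ± 3.40 to 119 ± 21.4 CPM (SD, n = 4), a log2 fold change of 0.41 ± 0.12 (SE, adjusted p = 0.0238). Psmb3 rose from 13.5 ± 0.869 to 18.6 ± 3.84 CPM, a log2 fold change of 0.46 ± 0.15 (SE, adjusted p = 0.0354). The catalytic subunit Psmb5 had a like fold change of 0.43 ± 0.15 (SE, adjusted p = 0.0533) and was not called, while its 4 mutant mice did not overlap the 4 WT mice.

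The assembly chaperones Psmd5 and Psmd10 rose most clearly in the regulatory list. Psmd5 was at 23.0, 30.8, 21.2 and 23.7 CPM in the mutant mice and 16.7, 17.3, 17.1 and 15.9 in WT, with no overlap, and its log2 fold change was 0.56 ± 0.11 (SE, adjusted p = 0.0026). Psmd10, also known as the ankyrin-repeat protein gankyrin, was at 10.5, 15.0, 10.9 and 13.2 CPM against 7.77, 8.65, 9.96 and 8.51, a log2 fold change of 0.51 ± 0.13 (SE, adjusted p = 0.012). The third chaperone, Psmd9, had a value of 0.08 ± 0.11 (SE, adjusted p = 0.621) and was not called. Of the lid, Psmd13 rose by 0.34 ± 0.10 (SE, adjusted p = 0.0252) and Psmd11 by 0.42 ± 0.14 (SE, adjusted p = 0.0427) on the log2 scale, whereas none of the 6 ATPases was called, with values from -0.01 for Psmc1 to 0.35 for Psmc4. Psmd1, the large scaffold subunit of the base, was the 1 gene whose mutant mice were all below the WT mice (167, 153, 150.4 and 159 against 171, 196, 183 and 171 CPM), at -0.20 ± 0.10 (SE, adjusted p = 0.173), not called.

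In all, the 4 mutant mice were above the 4 WT mice without overlap for 11 of the 34 genes, beside 14.3% of all genes, and below for 1, beside 10.6%. The count of called genes moved with single mice. Without placebo Dnm2 S619L/+ mouse 2 it was 3 (Psmb4, Psmd5 and Psmd10 of the named genes remained), beside 15.1% of all genes called, and the medians went to 0.06 for the core and 0.09 for the regulatory genes. Without WT placebo mice 1, 2, 3 and 4 in turn it was 4, 5, 5 and 3. Psmb4, Psmd5 and Psmd10 remained called whichever of the 16 mice was left out, with adjusted p up to 0.00907, 0.00825 and 0.0413, while Psmb1, Psmb3, Psmd13 and Psmd11 were lost without mouse 2 of the placebo mutants (adjusted p = 0.0820, 0.125, 0.0821 and 0.121) and in some other fits. Scaled by library totals alone, 30 of 34 were called and all 34 were above 0, where the median of all genes stood at 0.28 and that of the 34 genes at 0.45. The scaling thus raised the median of all genes as well, and the share of all genes called under it is not given here.

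**Figure D3:**
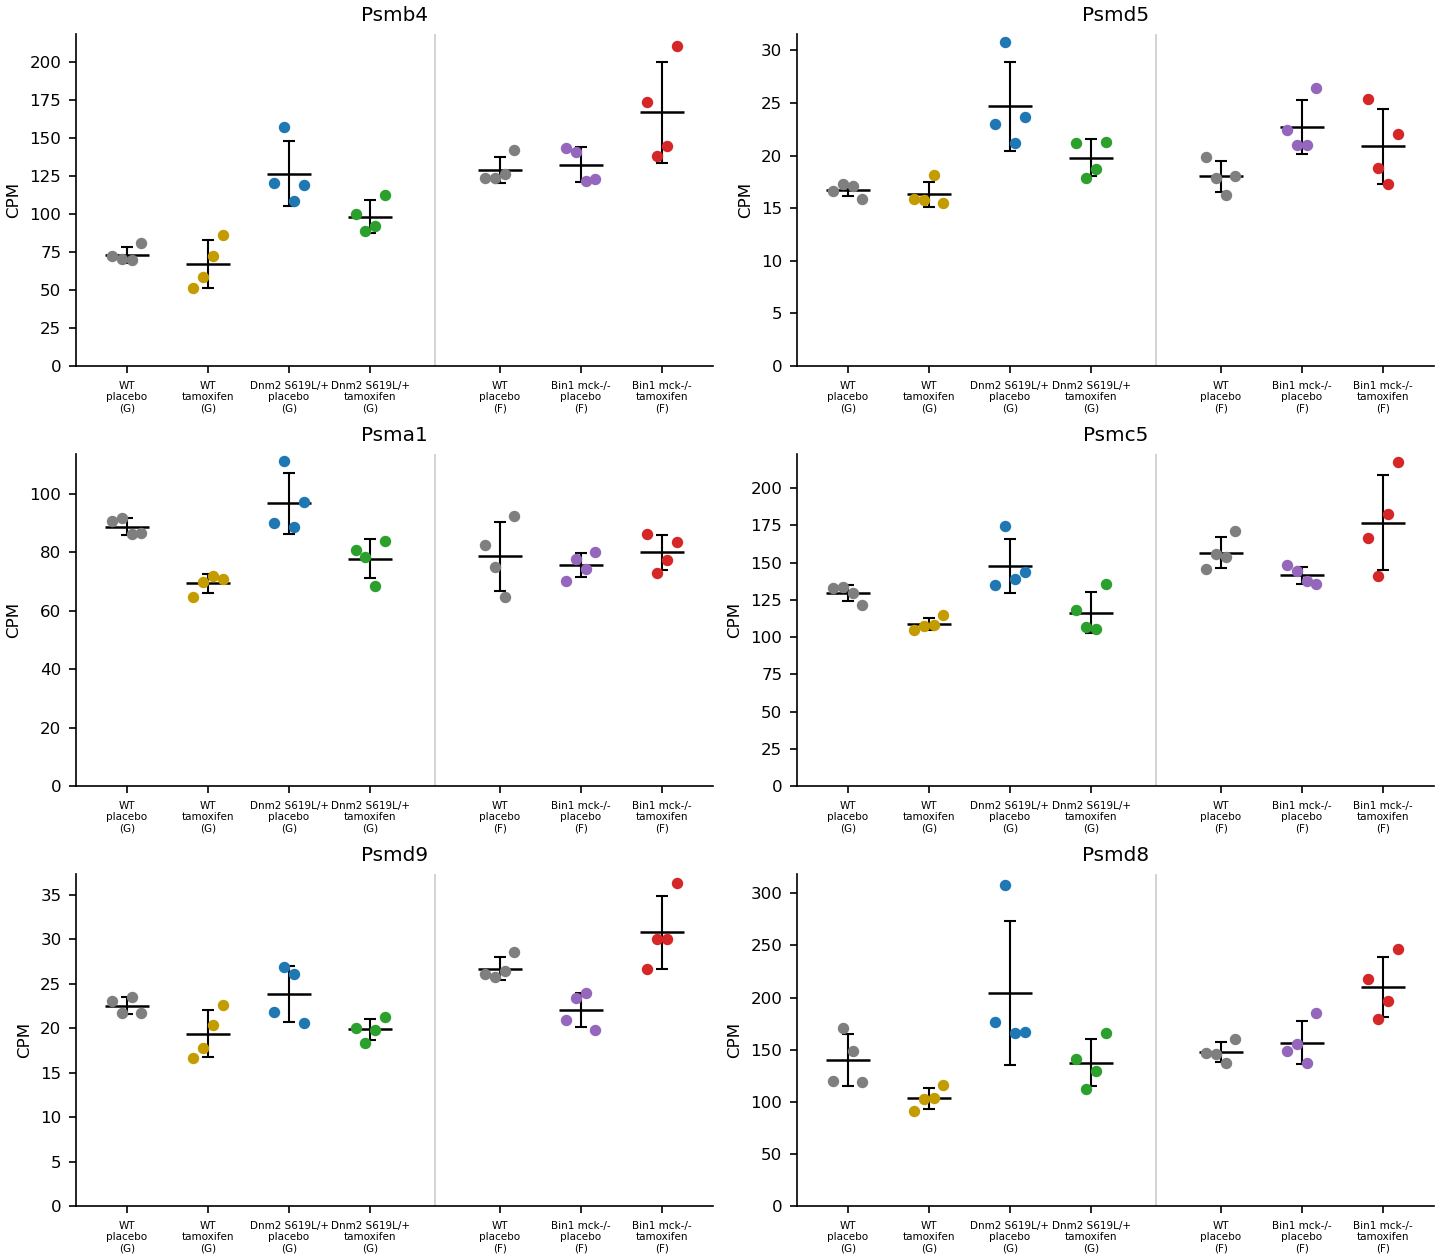
CPM of 6 genes in each of the 28 mice, with the group mean as a line and the SD of 4 mice as the error bar, on axes that start at 0. Psmb4 and Psmd5 separate placebo Dnm2 S619L/+ from placebo WT mice of cohort G, the means of Psma1 and Psmc5 are lower in both tamoxifen groups than in the placebo groups of cohort G, and the group means of Psmd9 and Psmd8 are highest in tamoxifen Bin1 mck-/- mice, while 1 placebo Dnm2 S619L/+ mouse reached 308 CPM of Psmd8.

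The second comparison asked what tamoxifen does to WT muscle. All 34 genes had a log2 fold change below 0 in tamoxifen against placebo WT mice, with a median of -0.31 over the core and -0.25 over the regulatory genes against -0.04 over all genes. The test called 5 of them lower and none higher, beside 27.7% of all genes called, and 11.9% called lower: the alpha subunits Psma1 and Psma4, the catalytic Psmb7, the beta subunit Psmb2 and the ATPase Psmc1. A count of 5 in 34 lies near the background share, and what the genes had in common was their direction and small size, with single fold changes from -0.43 for Psmd8 to -0.04 for Psmd5.

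Psma1 was at 64.8, 69.8, 71.9 and 71.0 CPM in the tamoxifen WT mice and 90.6, 91.9, 86.1 and 86.8 in the placebo WT mice. All 4 treated mice were below all 4 untreated ones, and the log2 fold change was -0.36 ± 0.09 (SE, adjusted p = 0.00769). Psmb7, which carries the trypsin-like site, fell from 175 ± 16.5 to 136 ± 12.5 CPM, a log2 fold change of -0.36 ± 0.11 (SE, adjusted p = 0.0269). Psmb2 had a log2 fold change of -0.34 ± 0.11 (SE, adjusted p = 0.0346) and Psma4 one of -0.39 ± 0.13 (SE, adjusted p = 0.0358). The ATPase Psmc1 was at 89.9, 90.4, 78.9 and 89.3 CPM against 109.5, 125, 119 and 95.4, also without overlap, at -0.37 ± 0.11 (SE, adjusted p = 0.0267). The groups did not overlap for 19 of the 34 genes, 8 core and 11 regulatory, all lower under tamoxifen, beside 13.8% of all genes.

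All 34 values remained below 0 when any of the 16 mice was left out. Scaled by library totals alone, with no TMM factor, the direction did not hold: 15 of 34 were below 0 and none was called, but the median of all genes then stood at 0.24 and that of the 34 genes at 0.01. The count of calls was 13 by DESeq2, beside 31.8% of all genes called, and ran from 1 without WT placebo mouse 2 or 3 to 16 without placebo Dnm2 S619L/+ mouse 2. It was 2 without WT tamoxifen mouse 3, 3 without WT placebo mouse 1 or WT tamoxifen mouse 1 or 2, and 13 without tamoxifen Dnm2 S619L/+ mouse 4. The share of all genes called when 1 mouse was left out is not given beside these counts. Psma1 alone of the 5 remained called in all 16 of these fits, with adjusted p up to 0.0311. The fibre marker sum was 105299 to 121887 CPM in the tamoxifen and 138715 to 166978 in the placebo WT mice, the proliferation sums did not overlap between these groups, and whether these and the bone sums above bear on the proteasome values was not tested.

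The same question in the disease model gave values of the same size. In tamoxifen against placebo Dnm2 S619L/+ muscle all 34 log2 fold changes were again below 0, from -0.57 for Psmd8 to -0.04 for Psmd1, with medians of -0.28 for the core and -0.29 for the regulatory genes against -0.03 over all genes. The test called 2 lower, Psma1 and the ATPase Psmc5, and none higher, beside 8.26% of all genes called, and 3.04% called lower. An unadjusted p below 0.05 was found for 24 of the 34, and the share of all genes at that threshold was not counted. Psma1 was at 80.9, 78.3, 68.4 and 84.0 CPM in the tamoxifen and 89.99, 111, 88.8 and 97.2 in the placebo mutants, without overlap, a log2 fold change of -0.31 ± 0.09 (SE, adjusted p = 0.0396). Psmc5 was at 118, 107, 105 and 136 against 135, 174, 139 and 144 CPM, where the highest treated mouse at 136 was above the lowest untreated one at 135, and changed by -0.34 ± 0.10 (SE, adjusted p = 0.0432).

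The groups did not overlap for 4 genes (Psma1, Psmb5, Psmd8 and Psmd10), all lower under tamoxifen, beside 6.37% of all genes. Psmd8, a lid subunit, was at 141, 112, 129.8 and 166 CPM against 177, 308, 166 and 167, a fold change of -0.57 ± 0.19 (SE, adjusted p = 0.0749), and Psmd10 at -0.43 ± 0.13 (SE, adjusted p = 0.0511), neither called. Without tamoxifen mouse 4, which had the high proteasome values and the low bone sum of 543 CPM, 14 genes were called lower, beside 16.4% of all genes, and the medians were -0.35 for the core and -0.36 for the regulatory genes; without placebo mouse 2, which stood high in the other group, none was called, beside 3.53% of all genes, and the medians were -0.18 for the core and -0.17 for the regulatory genes. No gene was called without WT placebo mouse 1 or 2, placebo Dnm2 S619L/+ mouse 4, or tamoxifen Dnm2 S619L/+ mouse 1, 2 or 3 either, 1 was without any 1 of the 4 tamoxifen WT mice, and 3 and 4 without placebo Dnm2 S619L/+ mice 1 and 3. The 33 or 34 values below 0 remained in all 16 of these fits, but the 2 calls depend on single mice and on the setting, with adjusted p up to 0.145 for Psma1 and 0.148 for Psmc5.

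**Figure D4:**
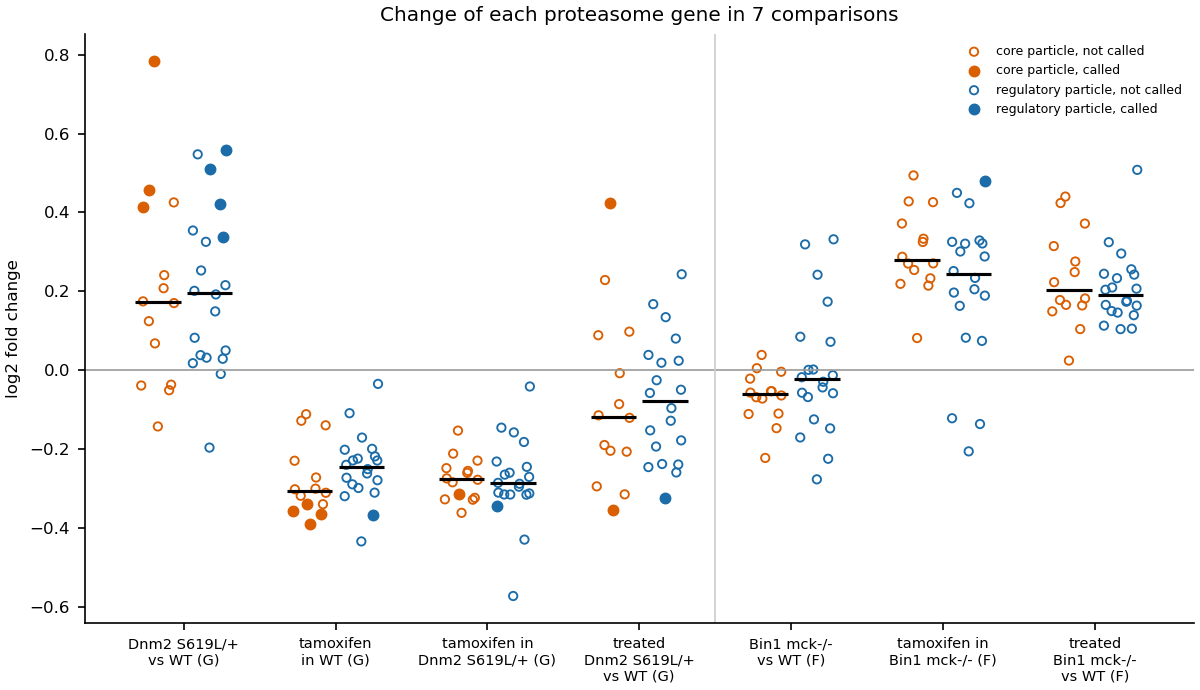
Log2 fold change of each of the 34 genes in the 4 comparisons of cohort G (left of the grey line) and the 3 of cohort F (right), core particle in orange and regulatory particle in blue. Filled points passed the test, and black lines are medians. The tamoxifen columns of cohort G lie wholly below 0 and the tamoxifen column of cohort F lies above it except for 3 regulatory genes.

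The test of the interaction asked whether tamoxifen acted differently in mutant and WT muscle of cohort G. No proteasome gene was called, none had an unadjusted p below 0.05 and DESeq2 called none, beside 0.259% of all genes called by edgeR. The 34 differences of effect ran from -0.28 for Psmd5 to 0.17 for Psma3 with SE of 0.12 to 0.27, so that an effect in mutants larger or smaller by as much as these errors allow was not detectable. Scaled by library totals all 34 were below 0, with a median of -0.20 beside -0.21 over all genes. Without placebo Dnm2 S619L/+ mouse 2 the medians were 0.12 over the core and 0.11 over the regulatory genes, in place of 0.02 and -0.01. Psmb4 had -0.23 ± 0.21 (SE, adjusted p = 0.689) and Psmd5 -0.28 ± 0.16 (SE, adjusted p = 0.457), both on the side of a stronger lowering in mutants.

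Treated mutants were then set against untreated WT mice, which asks how far the treated muscle lay from WT. Psmb4 was higher and Psmb2 and Psmc1 were lower, 3 calls in 34, beside 28.9% of all genes called, 15.8% higher and 13.1% lower. Psmb4 was at 99.8, 88.8, 92.0 and 113 CPM in treated mutants, with each mouse above the WT mice, and its log2 fold change against WT was 0.42 ± 0.15 (SE, adjusted p = 0.0449). Psmb2 had -0.36 ± 0.11 (SE, adjusted p = 0.0271) and Psmc1 -0.33 ± 0.11 (SE, adjusted p = 0.0439), a direction that did not hold for Psmc1 under scaling by library totals, where it was at 0.03. Psmd5, which rose with the mutation, was at 21.2, 17.8, 18.8 and 21.3 CPM, still without overlap with WT, at 0.24 ± 0.11 (SE, adjusted p = 0.108) and not called. The groups did not overlap for 2 higher genes, Psmb4 and Psmd5, beside 12.7% of all genes, and 2 lower ones, Psma1 and Psmd9, beside 13.4%. The median was -0.12 over the core and -0.08 over the regulatory genes, with 11 of 34 values above 0. The median of all genes lay between 0.002 and 0.026 in the fits that left out 1 mouse. Scaled by library totals 33 of 34 values were above 0 and 17 were called, where the median of all genes stood at 0.35, above that of the 34 genes at 0.24. The 3 calls were all lost without WT placebo mouse 2 or 3 or tamoxifen Dnm2 S619L/+ mouse 2 or 3. The count was 1 without WT placebo mouse 1, placebo Dnm2 S619L/+ mouse 1 or tamoxifen Dnm2 S619L/+ mouse 1, and rose to 5, 6 and 9 without WT placebo mouse 4, placebo Dnm2 S619L/+ mouse 2 and tamoxifen Dnm2 S619L/+ mouse 4.

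In cohort F the loss of Bin1 alone was not followed by a called change of any of the 34 genes. edgeR called none in placebo Bin1 mck-/- against placebo WT muscle, beside 2.61% of all genes called, 3 genes had an unadjusted p below 0.05, and DESeq2 called none. The medians were -0.06 over the core and -0.02 over the regulatory genes. The median of all genes lay between -0.003 and 0.016 in the fits that left out 1 mouse. The core gene with the smallest p was Psmb7, at 161, 173, 164 and 158 CPM in the mutants and 178, 191, 173 and 224 in WT mice 5 to 8, with -0.22 ± 0.12 (SE, adjusted p = 0.304). The regulatory gene was Psmd5, at 22.4, 21.0, 21.0 and 26.4 CPM against 19.9, 17.8, 16.3 and 18.1, with 0.33 ± 0.13 (SE, adjusted p = 0.167). Psmd5 was also the 1 gene whose mutant mice were all above WT, beside 9.09% of all genes, and Psmb7, Psmd1, Psmd2 and Psmd9 were the 4 whose mutant mice were all below, beside 7.46%. Psmd5, Psmd10 and Psmd11 had the highest values of the 34 here, 0.33, 0.32 and 0.24, none of them called. Scaled by library totals 28 of 34 values were above 0 in place of 10, where the median of all genes stood at 0.13 and that of the 34 genes at 0.08. Without WT mouse 8, which was high for most of the genes, the median over the 34 genes was 0.00 in place of -0.05.

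Tamoxifen in Bin1 mck-/- muscle went with higher values of most of the genes. The log2 fold change was above 0 for 31 of 34, with medians of 0.28 over the core and 0.24 over the regulatory genes against 0.00 over all genes. An unadjusted p below 0.05 was found for 21 of the 34, without a count of all genes at that threshold. After adjustment 1 was called, the chaperone Psmd9, higher, beside 3.13% of all genes called, and 1.52% called higher. Psmd9 was at 26.7, 30.0, 30.0 and 36.4 CPM in the tamoxifen and 21.0, 23.4, 23.9 and 19.8 in the placebo mutants. All 4 treated mice were above all 4 untreated ones, and the log2 fold change was 0.48 ± 0.11 (SE, adjusted p = 0.0289). Of the core particle, the alpha subunit Psma7 had the smallest p, with 109.8, 93.1, 99.0 and 132 against 85.4, 82.0, 76.95 and 78.7 CPM, also without overlap, and 0.43 ± 0.12 (SE, adjusted p = 0.0684).

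The groups did not overlap for 8 genes, all higher under tamoxifen, beside 4.69% of all genes: Psma5, Psma7, Psmb7, Psmc1, Psmd4, Psmd6, Psmd12 and Psmd9. Psma5 had the largest value at 0.49, followed by Psmd9 at 0.48, the ubiquitin receptor Psmd4 at 0.45, Psmb3 at 0.43 and Psma7 at 0.43. The 3 genes below 0 were Psmd5 at -0.12, Psmd10 at -0.21 and the lid subunit Psmd11 at -0.14, whose values in the comparison of placebo mutants with WT are given above and rest on the same placebo mutants.

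Here too the count of calls moved with single mice. Without tamoxifen Bin1 mck-/- mouse 2, which had the lowest proteasome values and the bone sum of 3028 CPM, 12 genes were called higher, beside 8.30% of all genes, and the medians were 0.37 for the core and 0.29 for the regulatory genes, and without mouse 4, which had the highest, none was, beside 1.66%, and the medians were 0.19 and 0.17. Leaving out tamoxifen Bin1 mck-/- mouse 3 or placebo Bin1 mck-/- mouse 1, 2 or 4 also ended the call of Psmd9, with adjusted p from 0.0606 to 0.0860. The 31 values above 0 kept their count in all 12 fits that left out 1 mouse. DESeq2 called 8 of the 34, beside 8.24% of all genes. Scaled by library totals none was called and 27 were above 0, where the median of all genes stood at -0.16 and that of the 34 genes at 0.09. The fibre marker sum was 159538, 127752, 199722 and 182752 CPM in the treated and 150003, 126729, 134481 and 109259 in the untreated mutants, and its part in the result was not tested.

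Treated Bin1 mck-/- mice against untreated WT mice gave 34 of 34 values above 0, with medians of 0.20 over the core and 0.19 over the regulatory genes. The median of all genes lay no higher than 0.03 in the fits that left out 1 mouse. None of the 34 was called by edgeR, beside 0.849% of all genes, 10 had an unadjusted p below 0.05, and DESeq2 called 1. Psmd8 was at 217, 179, 197 and 247 CPM against 147, 146, 137 and 160.4 in WT, with no overlap, at 0.51 ± 0.12 (SE, adjusted p = 0.0714). It was called, as the 1 gene of the 34, when tamoxifen Bin1 mck-/- mouse 2 (adjusted p = 0.0443) or placebo Bin1 mck-/- mouse 4 (adjusted p = 0.0482) was left out. Psma5 had 0.44 ± 0.15 (SE, adjusted p = 0.175), and its treated mice at 16.7, 15.2, 15.1 and 23.5 CPM were all above WT at 12.3, 12.6, 12.6 and 14.4. The groups did not overlap for 3 genes, beside 3.68% of all genes.

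A joint fit of all 28 mice tested whether tamoxifen acted differently in the 2 models. The effect in Dnm2 S619L/+ minus the effect in Bin1 mck-/- muscle was below 0 for all 34 genes, with medians of -0.57 over the core and -0.46 over the regulatory genes against about 0 over all genes. The test called 5 genes, all lower, beside 1.71% of 16036 genes called, and 0.655% called lower. Of the 34 genes, 28 had an unadjusted p below 0.05, a threshold at which all genes were not counted. The 5 were the lid subunit Psmd8 with a difference of -0.96 ± 0.23 (SE, adjusted p = 0.0444), the ubiquitin receptor Psmd4 with -0.73 ± 0.19 (SE, adjusted p = 0.0487), the chaperone Psmd9 with -0.71 ± 0.15 (SE, adjusted p = 0.0236), the alpha subunit Psma7 with -0.64 ± 0.17 (SE, adjusted p = 0.0482) and the ATPase Psmc5 with -0.64 ± 0.15 (SE, adjusted p = 0.0437).

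The 5 genes had opposite signs in the 2 models. Psmd8 had -0.57 ± 0.19 in Dnm2 S619L/+ and 0.42 ± 0.12 in Bin1 mck-/- muscle (log2, ± SE). Psmd4 was at 143, 198, 127 and 143 CPM on placebo and 129, 109.7, 108 and 145 on tamoxifen in Dnm2 S619L/+ mice, and at 147, 145, 130.1 and 133 and 169, 155, 179 and 254 in Bin1 mck-/- mice. In the first model the highest mouse was on placebo, and in the second all 4 treated mice were above the untreated ones. Psmd9 had -0.26 ± 0.11 and 0.48 ± 0.11, Psma7 -0.25 ± 0.11 and 0.43 ± 0.12, and Psmc5 -0.34 ± 0.10 and 0.32 ± 0.12. Of all 34 genes, 31 were below 0 in Dnm2 S619L/+ and above 0 in Bin1 mck-/- muscle, and Psmd5, Psmd10 and Psmd11 were below 0 in both. These 3 had the differences nearest to 0, with Psmd11 at -0.12 ± 0.17 (SE, adjusted p = 0.72), Psmd5 at -0.16 ± 0.16 (SE, adjusted p = 0.579) and Psmd10 at -0.19 ± 0.19 (SE, adjusted p = 0.568).

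**Figure D5:**
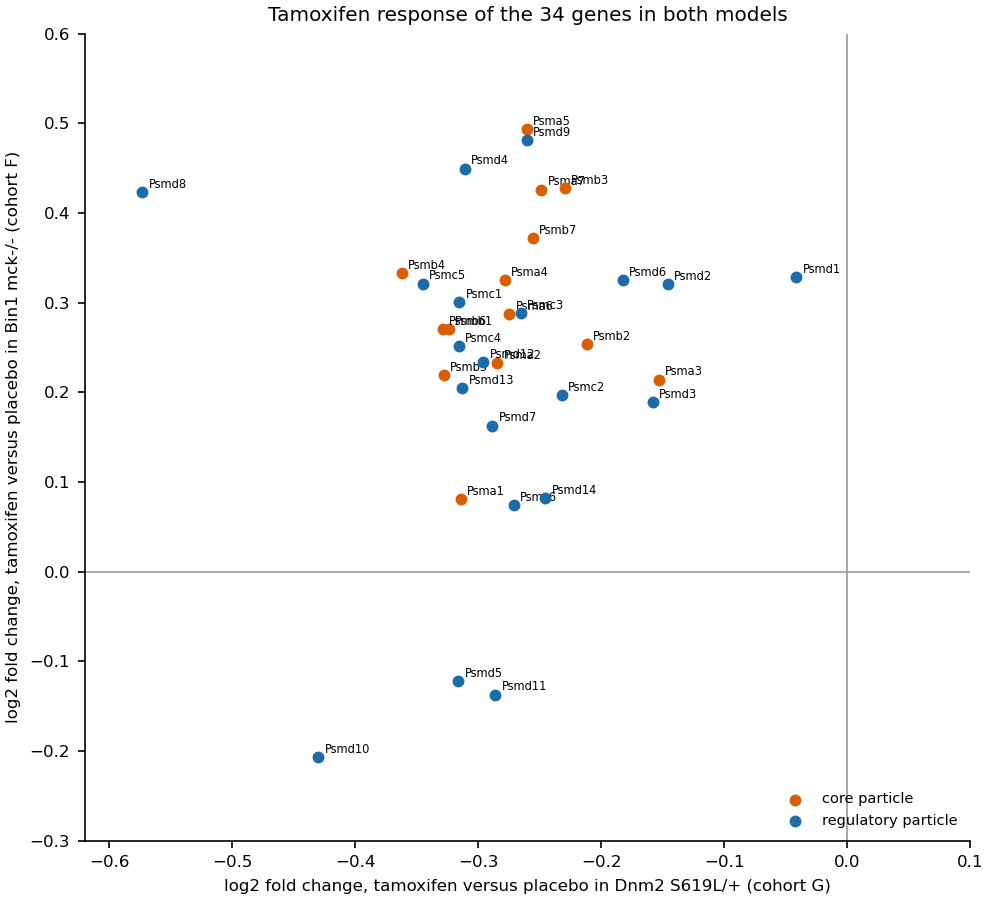
Log2 fold change under tamoxifen in Dnm2 S619L/+ muscle (horizontal axis, cohort G) and in Bin1 mck-/- muscle (vertical axis, cohort F) for each of the 34 genes, core particle in orange and regulatory particle in blue. All points lie left of the vertical zero line, 31 above the horizontal one, and Psmd5, Psmd10 and Psmd11 below it.

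All 34 differences remained below 0 in the 28 fits that left out 1 mouse, but the number of calls moved from 0 to 26. It was 24 without tamoxifen Dnm2 S619L/+ mouse 4, beside 11.2% of all genes called, and 26 without tamoxifen Bin1 mck-/- mouse 2, beside 13.5%. No gene was called without placebo Dnm2 S619L/+ mouse 2, any 1 of tamoxifen Dnm2 S619L/+ mice 1 to 3, placebo Bin1 mck-/- mouse 4, or tamoxifen Bin1 mck-/- mouse 3 or 4, and the other 19 fits gave 1 to 5 calls. It was 1 without WT placebo mouse 1 or WT tamoxifen mouse 3 of cohort G, WT mouse 6 or 7 of cohort F, or placebo Bin1 mck-/- mouse 1 or 2, it was 2 without WT placebo mouse 2 or 3, placebo Dnm2 S619L/+ mouse 4 or placebo Bin1 mck-/- mouse 3, and it was 3 without WT placebo mouse 4, WT tamoxifen mouse 1, 2 or 4, or WT mouse 5 of cohort F. DESeq2 called 21 of the 34, beside 8.28% of all genes, and scaling by library totals called none, with 31 of 34 values below 0, where the median of all genes stood at 0.22 and that of the 34 genes at -0.29. The effect of the disease itself, tested in the same way as Dnm2 S619L/+ minus Bin1 mck-/-, was above 0 for 31 of 34 genes with medians of 0.22 and 0.20, and none was called by edgeR, beside 0.312% of all genes, 9 had an unadjusted p below 0.05, and DESeq2 called 1. The median of all genes for this disease difference lay between -0.019 and 0.013 in the fits that left out 1 mouse. The largest difference among the 34 genes was that of Psmb4, 0.74 ± 0.20 (SE, adjusted p = 0.113), and the smallest p of the regulatory particle was that of Psmd9, 0.35 ± 0.15 (SE, adjusted p = 0.289).

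Other genes of the pathway were followed by lists. The core assembly chaperones, which build the barrel, rose in 4 of 5 in Dnm2 S619L/+ against WT muscle, beside 12.1% of all genes called higher, with Pomp at 0.88 ± 0.13 (SE, adjusted p = 0.00032), Psmg4 at 1.10 ± 0.20 (SE, adjusted p = 0.00165) and Psmg3 at 0.70 ± 0.16 (SE, adjusted p = 0.00799). Pomp was at 92.9, 133, 88.5 and 130.5 CPM in the placebo mutants and 60.1, 60.7, 63.9 and 56.6 in placebo WT mice, with no overlap. These 4 calls held whichever of the 16 mice was left out and under library totals. Under tamoxifen 2 of the 5 fell in the mutants, beside 3.04% of all genes called lower, Pomp with a log2 fold change of -0.70 ± 0.13 (SE, adjusted p = 0.00602) and Psmg2 with -0.51 ± 0.14 (SE, adjusted p = 0.0308), and Pomp was at 74.4, 66.6, 58.3 and 74.2 CPM in treated mutants. The call of Pomp held without any 1 mouse, and that of Psmg2 was lost without placebo Dnm2 S619L/+ mouse 2 or 4 or tamoxifen Dnm2 S619L/+ mouse 2 or 3, with adjusted p up to 0.114. None of the 5 was called in WT under tamoxifen or in the comparisons within cohort F, and Psmg4 was called higher in treated Dnm2 S619L/+ mice against WT (0.74 ± 0.20, adjusted p = 0.0126). Of all genes, 15.8% were called higher in that last comparison. Pomp differed between the models under tamoxifen (-0.79 ± 0.20, adjusted p = 0.0462), beside 1.71% of all genes called. This call was lost in 21 of 28 fits that left out 1 mouse.

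The 3 immunoproteasome subunits, which replace the catalytic beta subunits where interferon acts, gave 1 gene that was called. Of all genes, 12.1% were called higher in Dnm2 S619L/+ against WT muscle and 3.04% lower under tamoxifen in the mutants. Psmb10 rose in Dnm2 S619L/+ against WT muscle, by 1.27 ± 0.35 (SE, adjusted p = 0.0201) on the log2 scale, and fell under tamoxifen in the mutants, with -1.27 ± 0.35 (SE, adjusted p = 0.0405). Its values were 13.8, 16.2, 12.2 and 50.2 CPM in the placebo mutants, 10.1, 11.0, 8.66 and 8.48 in the treated mutants and 9.79, 9.28, 6.80 and 12.0 in WT. Mouse 4 of the placebo mutants stood far above the rest, and its macrophage and leukocyte sum of 455 CPM was also the highest of its group. The rise was lost without WT placebo mouse 2 or 3 (adjusted p up to 0.0569), and the fall was lost in 10 of 16 fits that left out 1 mouse, that without placebo Dnm2 S619L/+ mouse 4 among them (adjusted p up to 0.124). Psmb8 and Psmb9 were not called in any comparison. Psma8, the alpha subunit of the testis, was called higher in both tamoxifen groups of cohort G, but at a mean of only 0.556 CPM in WT and 0.394 CPM in mutants. In these comparisons 27.7% and 8.26% of all genes were called in either direction.

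Among the 5 alternative caps and inhibitors, the activator Psme4 was lower in treated Dnm2 S619L/+ against WT muscle (-0.69 ± 0.14, adjusted p = 0.00303), a call that held without any 1 mouse. It was also lower in tamoxifen against placebo WT muscle (-0.40 ± 0.14, adjusted p = 0.0484) and in Bin1 mck-/- against WT on placebo (-0.58 ± 0.15, adjusted p = 0.0498), calls that were lost in 9 of 16 and 8 of 12 fits that left out 1 mouse. Under tamoxifen in Bin1 mck-/- muscle it was higher (0.65 ± 0.15, adjusted p = 0.0289). In cohort F its level was 215, 256, 234 and 259 CPM in WT, 163, 166, 175 and 139.5 in placebo and 226, 189, 325 and 271 in tamoxifen Bin1 mck-/- mice. The difference of its tamoxifen effects between the models was -0.92 ± 0.21 (SE, adjusted p = 0.039). Psme3 was called lower in treated Dnm2 S619L/+ against WT at -0.20 ± 0.07 (SE, adjusted p = 0.0402), but was at 0.15 when scaled by library totals. Of all genes, 13.1% were called lower in treated Dnm2 S619L/+ against WT muscle and 11.9% lower under tamoxifen in WT muscle. In Bin1 mck-/- muscle 2.61% were called in either direction against WT on placebo, and 1.52% higher under tamoxifen. The difference between the models called 1.71%.

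Of the 9 ubiquitin enzymes and shuttles that bind the proteasome, 2 fell in Dnm2 S619L/+ against WT muscle. Of all genes, 21.9% were called in either direction and 12.1% higher, and the share called lower is not given here. The 2 that fell were Ecpas (-0.49 ± 0.13, adjusted p = 0.0143), a scaffold that holds both particles together, and the deubiquitinase Uchl5 (-0.30 ± 0.09, adjusted p = 0.0283). Under tamoxifen in WT muscle 4 of the 9 fell, beside 27.7% of all genes called and 11.9% called lower, the 3 with the smallest p being Uchl5 (-0.30 ± 0.09, adjusted p = 0.023), the ligase Ube3c (-0.32 ± 0.10, adjusted p = 0.0241) and the shuttle Rad23b (-0.23 ± 0.08, adjusted p = 0.0328), and Rad23b was at 0.05 when scaled by library totals, the other named ones staying below 0. In treated Dnm2 S619L/+ against WT muscle 4 of the 9 were lower, beside 28.9% called and 13.1% called lower, the 3 with the smallest p being Uchl5 (-0.46 ± 0.09, adjusted p = 0.00193), Ecpas (-0.64 ± 0.13, adjusted p = 0.00236) and the shuttle Ubqln4 (-0.41 ± 0.09, adjusted p = 0.00416), which remained called without any 1 mouse. Ecpas rose under tamoxifen in Bin1 mck-/- muscle (0.60 ± 0.15, adjusted p = 0.0437), beside 1.52% of all genes called higher. This call was lost in 11 of 12 fits that left out 1 mouse.

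Of 5 known regulators of proteasome genes, Nfe2l1, the transcription factor that induces the subunit genes when the proteasome is inhibited, fell under tamoxifen in WT muscle (-0.29 ± 0.08, adjusted p = 0.0136), called without any 1 mouse but at 0.00 when scaled by library totals. Under tamoxifen in Bin1 mck-/- muscle Ddi2, the protease that activates the Nfe2l1 protein, rose by 0.89 ± 0.21 (SE, adjusted p = 0.0349) and Zfand5, which stimulates the proteasome, by 0.57 ± 0.12 (SE, adjusted p = 0.0218), while Nfe2l1 itself was at -0.03 ± 0.13 (SE, adjusted p = 0.926), not called. Of the 4 atrophy ubiquitin ligases, Fbxo32 was higher under tamoxifen in Bin1 mck-/- muscle (0.86 ± 0.21, adjusted p = 0.0408) and in treated Dnm2 S619L/+ against WT muscle (0.75 ± 0.26, adjusted p = 0.0444). The calls of Psme4, Zfand5, Ddi2 and Fbxo32 under tamoxifen in Bin1 mck-/- muscle were all lost, like that of Psmd9, without placebo Bin1 mck-/- mouse 1, 2 or 4 or tamoxifen Bin1 mck-/- mouse 3 or 4, with adjusted p up to 0.115. Trim63 was higher in treated Bin1 mck-/- against WT muscle (1.33 ± 0.20, adjusted p = 0.00518), which held without any 1 mouse. Of all genes, 11.9% were called lower under tamoxifen in WT muscle and 1.52% higher under tamoxifen in Bin1 mck-/- muscle. In treated mutants against WT, 15.8% were called higher for Dnm2 S619L/+ and 0.849% in either direction for Bin1 mck-/- mice.

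Of the 4 ubiquitin genes none was called within a cohort, and Ubb differed between the models under tamoxifen (-0.88 ± 0.23, adjusted p = 0.0482), beside 1.71% of all genes called. The call of Ubb was lost in 21 of 28 fits that left out 1 mouse. Neither of the other 2 regulatory particle subunits (Adrm1 and Sem1) and none of the 4 genes of p97 and its cofactors was called by edgeR in any of the 10 comparisons.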

How the data were processed

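RNA of TA muscle from 28 mice, each a sample of its own, was sequenced as stranded polyA libraries. The authors trimmed the reads, aligned them to mm39 and deposited raw counts per Ensembl gene. The submitters' processing notes name bcl2fastq 2.20.0.422, cutadapt 1.10, Bowtie 1.2.2, STAR 2.5.3 and HTSeq 0.6.1p1. The table of cohort F ended in 4 lines that name no gene, which held 22.0 to 30.8% of its counts (median 23.9%) and were left out. No column was unused, and 52083 identifiers of each table were given a symbol.

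In each cohort all groups were fitted together with edgeR 4.0.16 (R 4.3.3) after filterByExpr, with TMM factors, robust quasi-likelihood tests, a prior count of 2 for fold changes and Benjamini-Hochberg adjustment over all genes tested, 15439 in cohort G and 14841 in cohort F. The 2 differences between models came from a joint fit of 28 mice (16036 genes). CPM values use the same factors. The fit was tested on simulated counts with 50 genes changed at each size. In cohort G (15262 genes) it recovered 0% of 1.25-fold, 20% of 1.5-fold, 64% of 2-fold and 88% of 4-fold changes, and in cohort F (14620 genes) 0%, 14%, 58% and 76%. Each simulation changed 200 genes and called 91 in cohort G and 80 in cohort F, of which 5.49% and 7.5% were unchanged. Where more genes are called, such as the 3383 for disease in cohort G, the cut on p is less strict. Smaller changes can then be called than in the simulation.

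The members and gene lists were chosen with earlier results of these data known. Named with full statistics were, per comparison, up to 4 called core and 4 called regulatory genes with the smallest p, or else the gene with the smallest p, and up to 3 called genes of each other list. Further genes are named as extremes of a range or for groups that did not overlap, chosen after their values were seen. Alternatives were DESeq2 1.42.0, other scalings and filters, thinned libraries, Xist as a covariate since the labels used here give no sex, a block by mouse number, and each mouse left out. Transcript lengths came from GENCODE M21 and promoters from RefSeq (GRCm38.p6), matched by symbol, since no mm39 sequence was used here.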

Additional observations from a re-analysis of the deposited data

Results flagged for a closer look

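Among 252 sets of 4 mice (34 genes and the 2 particle means in 7 groups), 24 had a mouse that stood apart from the other 3 by more than Dixon's critical value for the gap over the range, where chance flags about 1 in 20, and the sets share mice. Placebo Dnm2 S619L/+ mouse 2 was the high one in 11 of them. Its core particle mean was 6.34 (log2 CPM). Its CPM was 118 for Psma7, 24.3 for Psmb3, 200.2 for Psmb6 and 202 for Psmb7 in the core particle, 138 for Psmc1, 179 for Psmc2, 299.7 for Psmc3 and 140.1 for Psmc4 among the ATPases, and 217 for Psmd7 and 308 for Psmd8 in the lid. The value of Psmd8 stood against 166 to 177 CPM in the other 3 mice of the group.

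WT mouse 8 of cohort F was the high one in 6, with 14.4 CPM for Psma5, 104 for Psma7, 93.6 for Psmb2, 142 for Psmb4, 116 for Psmc1 and 171 for Psmd4. WT tamoxifen mouse 3 of cohort G was low for Psmc1 at 78.9 CPM and Psmc2 at 99.9 CPM, and high for Psmd5 at 18.1 CPM. Psmc3 was low in WT placebo mouse 4 at 188 CPM and high in WT tamoxifen mouse 4, also at 188 CPM. WT mouse 5 of cohort F was high for Psmd11 at 104 CPM, and placebo Bin1 mck-/- mouse 3 had a low regulatory particle mean of 6.49 (log2 CPM). What sets these mice apart was not tested.

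The test of the difference between the models singled out 5 genes whose log2 change under tamoxifen was lower in Dnm2 S619L/+ than in Bin1 mck-/- muscle, by edgeR's adjusted p: Psma7 (-0.64), Psmc5 (-0.64), Psmd4 (-0.73), Psmd8 (-0.96) and Psmd9 (-0.71). Each of them was called only with certain mice present, with Psmd9 lost in 7, Psmc5 and Psmd8 in 15, Psma7 in 23 and Psmd4 in 24 of the 28 fits that left out 1 mouse. Placebo Dnm2 S619L/+ mouse 2 and tamoxifen Bin1 mck-/- mouse 4 were among the mice whose omission left no call.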

How the results depend on the processing

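Counts are of the 34 genes called, set against 7 for disease against WT in cohort G, 5 and 2 for tamoxifen in WT and in Dnm2 S619L/+ muscle, 3 for treated Dnm2 S619L/+ against WT, 1 for tamoxifen in Bin1 mck-/- muscle, 0 for treated Bin1 mck-/- against WT, and 5 and 0 for the difference between models of the tamoxifen and the disease effect. DESeq2 gave 13 for tamoxifen in WT, 5 in Dnm2 S619L/+ and 8 in Bin1 mck-/- muscle, 1 for treated Bin1 mck-/- against WT, and 21 and 1 for the 2 differences between models. Scaling by library totals gave 30 for disease in cohort G, 0 for tamoxifen in WT, 1 in Dnm2 S619L/+ and 0 in Bin1 mck-/- muscle, 17 for treated Dnm2 S619L/+ against WT, and 0 and 3 for the differences. Of the named genes among the 34 it reversed 1, Psmc1 in treated Dnm2 S619L/+ against WT muscle, to 0.028. No filter on low counts gave 4 for disease in cohort G, 3 for tamoxifen in WT, 0 in Dnm2 S619L/+, 0 for treated Dnm2 S619L/+ against WT, 1 for treated Bin1 mck-/- against WT and 0 for the tamoxifen difference, which a filter at 10 reads in 90% of mice put at 9. Xist as a covariate gave 0 for tamoxifen in Dnm2 S619L/+, 1 for treated Dnm2 S619L/+ against WT and 0 for the tamoxifen difference, and thinned libraries gave 0 for tamoxifen in Dnm2 S619L/+ muscle. Only the groups compared gave 10 for tamoxifen in WT, 0 in Dnm2 S619L/+ and 0 in Bin1 mck-/- muscle. The causes were not tested. These counts and those below are given without the share of all genes called in the same fit, and are not results about the 34 genes alone.

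Leaving out 1 mouse gave 3 to 10 for disease in cohort G, 1 to 16, 0 to 14 and 0 to 12 for tamoxifen in WT, Dnm2 S619L/+ and Bin1 mck-/- muscle, 0 to 9 and 0 to 1 for treated Dnm2 S619L/+ and Bin1 mck-/- against WT, and 0 to 26 for the tamoxifen difference. The interaction, the disease effect in cohort F and its difference between models gave 0 in all such fits. Single named genes and particle medians stayed within the same verdict in 740 of these fits, with 171 weaker, 3 stronger and 2 moved, and under the other settings in 409, with 55 weaker, 5 stronger, 16 moved and 1 reversed.

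Mice with the same number did not clearly deviate together. Their median correlation was 0.03 over 24 pairs in cohort G, 9 of them over 0.1, and -0.05 over 4 pairs in cohort F. Mice with different numbers had 0.004 over 72 pairs in cohort G, 22 of them over 0.1, and 0.005 over 44 pairs in cohort F. So few pairs cannot exclude a pairing by number, and the main fits used none. A block by number gave 6 for disease in cohort G, 4 for tamoxifen in WT, 2 for treated Dnm2 S619L/+ against WT, and 0 for tamoxifen in Dnm2 S619L/+ and 0 in Bin1 mck-/- muscle. It left the interaction at 0. No paired analysis was possible because of the numbering in comparisons with the WT mice of cohort F, which are numbered 5 to 8 and the Bin1 mck-/- mice 1 to 4. The differences between models were not fitted with a block.

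With 4 mice a group and the spread seen between mice, changes of the size that most of the 34 genes had were near or under what the fit can call, and calls of single genes should be read with their standard errors.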
